A study of Danio rerio with 6 samples.

Results

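The 7 genes described here had strongly lower transcript levels in the retina of thrb mutant zebrafish. They are pacsin2, crhbp, hexb, relt, arhgap11a and the clone-named si:dkey-72l14.3 and si:ch211-81a5.8. They were grouped as lying outside the phototransduction cascade, which was not examined here for the clone-named genes. All 7 were picked by symbol as candidate red cone transcripts because of their fall in this comparison. They are 7 of the 9211 gene rows of the authors' deposited table. Poly-A-selected RNA was sequenced from whole retinas of fish aged 6 months on the AB* background, in 3 thrb-/- samples, homozygous for the stl628 allele, and 3 wild-type samples, with the mutants matched to the wild-type fish by clutch. Each sample pooled 2 retinas of a male with 2 of a female, and nothing in the labels says that any other allele or agent was present. The allele was carried by the whole animal, and fish were sampled only as adults. The table holds 1 mean per genotype and no values per sample, so neither the spread of single samples nor their overlap between genotypes can be shown.

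Thyroid hormone receptor beta, the product of thrb, is a nuclear receptor that switches target genes on or off according to thyroid hormone, and in the vertebrate retina it is known for directing cones towards the long-wavelength-sensitive type. In zebrafish these are the red cones, marked by red opsins. The 5 genes with a name belong to unrelated processes. The pacsin2 product bends membranes during endocytosis, hexb encodes a subunit of a lysosomal enzyme, crhbp a secreted binding protein for a stress hormone, relt a receptor of the tumour necrosis factor family and arhgap11a a GTPase-activating protein. No role is given here for the clone-named genes.

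The labels were first checked on the mutated gene and the red opsins. Transcripts of thrb had a mean normalized count of 413 in mutant retina, against 3301 in wild-type retina, in the authors' deposited table. The red opsins opn1lw1 and opn1lw2 stood at 177 and 61.1 in mutant retina, against 51643 and 41322 in wild-type retina, in the authors' deposited table. Expressed as the level left in mutants, this is 12.4% for thrb, 0.343% for opn1lw1 and 0.145% for opn1lw2, computed from the fold changes of the authors' deposited table.

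All 7 genes were lower in mutant retina, and all kept a far larger share of their wild-type level than the red opsins did. That share ran from 16.0% for arhgap11a to 51.7% for hexb, from the fold changes in the authors' deposited table. The median log2 fold change of the 7 was -1.27, beside 0.00063 for all rows of the authors' deposited table. Added together, the 7 genes had 5867 normalized counts in mutant retina and 13009 in wild-type retina in the authors' deposited table, so that 45.1% of the wild-type sum was left. Most of the wild-type sum came from si:ch211-81a5.8 (4513), hexb (3790) and si:dkey-72l14.3 (2598), so it says little about the others. In a whole retina, fewer cells of a type and less RNA per cell cannot be told apart.

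**Figure D1:**
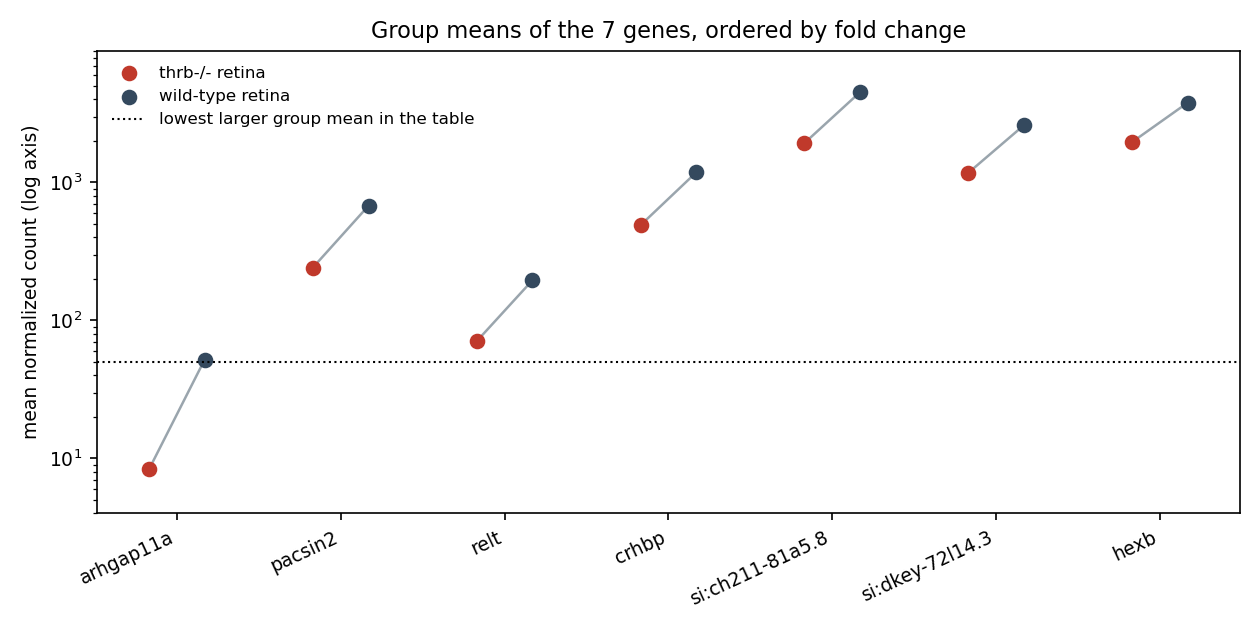
Mean normalized counts (log axis) of the 7 genes in thrb-/- retina (red) and wild-type retina (dark), joined by a line for each gene. Points are the authors' group means and carry no error; each red point lies below its dark partner, and for arhgap11a only the wild-type mean, 52.0, lies above the dotted line at 50.04, the lowest value of the larger group mean in the authors' deposited table.

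The gene of membrane traffic, pacsin2, encodes a protein of the F-BAR family, also called syndapin, which binds dynamin and N-WASP where vesicles are pinched off. Its mean normalized count was 241 in mutant retina and 678 in wild-type retina in the authors' deposited table. This is a 2.82-fold lower level (log2 fold change -1.49, SE 0.13), with 35.5% left (95% interval, 29.8% to 42.2%), as computed from the authors' deposited table. Its standard error was close to the median of 0.13 for the 200 rows nearest to it in mean count.

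The secreted member is crhbp, whose product binds corticotropin-releasing hormone and related peptides and keeps them from their receptors. The authors' deposited table gives 489 normalized counts in mutant retina against 1182 in wild-type retina. The transcript was 2.41-fold lower (log2 fold change -1.27, SE 0.13), which leaves 41.4% (95% interval, 34.6% to 49.6%), from the authors' deposited table.

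The lysosomal member is hexb, the beta subunit of beta-hexosaminidase, which removes terminal sugars from gangliosides and whose loss in humans causes Sandhoff disease. In the authors' deposited table it had 1959 normalized counts in mutant retina, against 3790 in wild-type retina. Its fall was the smallest of the 7, at 1.94-fold (log2 fold change -0.95, SE 0.097), with 51.7% left (95% interval, 45.3% to 59.0%), from the authors' deposited table. It was also the only 1 of the 7 below a 2-fold difference, so that the authors' test, which asks whether a change exceeds 2-fold, gives it a statistic of 0 in the authors' deposited table.

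The receptor gene relt was at 70.6 normalized counts in mutant retina and 195 in wild-type retina in the authors' deposited table. The difference was 2.76-fold (log2 fold change -1.47, SE 0.21), with 36.2% left (95% interval, 27.1% to 48.3%), by the authors' deposited table. Of the 7 standard errors only that of arhgap11a was larger.

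The GTPase-activating protein encoded by arhgap11a acts during cell division in mammalian cells. The gene had the lowest counts and the largest fall of the 7, with 8.31 normalized counts in mutant retina against 52.0 in wild-type retina in the authors' deposited table. This gives a log2 fold change of -2.64 with an SE of 0.46, a 6.25-fold lower level with 16.0% left (95% interval, 8.53% to 30.0%), from the authors' deposited table. Computed from the group means with a pseudocount of 10, the log2 fold change was -1.76, a smaller fall. Its standard error exceeded that of 97.5% of the 200 rows nearest to it in mean count, whose median was 0.30 in the authors' deposited table. Every row of that table has a group mean of at least 50.04 in 1 genotype or the other, and arhgap11a is listed only through its wild-type mean. Any row of so low a mutant mean had to differ to be listed at all. The other 6 genes exceed 50 normalized counts in both genotypes, while 101 rows (1.1%) lie under 50 in mutant retina.

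The clone-named genes had, with hexb, the most normalized counts of the 7, on a scale that is not corrected for transcript length. For si:ch211-81a5.8 the authors' deposited table gives 1926 normalized counts in mutant retina and 4513 in wild-type retina, 2.35-fold lower (log2 fold change -1.23, SE 0.13). The corresponding values of si:dkey-72l14.3 in the authors' deposited table are 1172 in mutant retina and 2598 in wild-type retina, 2.22-fold lower (-1.15, SE 0.11). The mutant level was 42.6% (95% interval, 35.7% to 50.9%) of the wild-type level for si:ch211-81a5.8 and 45.1% (38.9% to 52.1%) for si:dkey-72l14.3, from the authors' deposited table. At a like mean count 90.5% of 200 rows had a smaller standard error than si:ch211-81a5.8, and 76.0% a smaller one than si:dkey-72l14.3, in the authors' deposited table.

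Ordered by log2 fold change, arhgap11a (-2.64) was followed by pacsin2 (-1.49), relt (-1.47), crhbp (-1.27), si:ch211-81a5.8 (-1.23), si:dkey-72l14.3 (-1.15) and hexb (-0.95) in the authors' deposited table. No test was made between them, as these values chose the genes. The place of arhgap11a in this order rests on a wild-type mean of 52.0, just above 50.04, the lowest larger group mean of any row.

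Because the genes were chosen for their fall, their fold changes serve as a description and support no test. For orientation, 39 of 9211 rows (0.423%) were at least as low as hexb, and 32 rows (0.347%) were at least 2-fold lower by point estimate in the authors' deposited table, among them 6 of the 7. Only 6 rows rose by as much as hexb fell. None of the 7 had a deposited adjusted p under 0.05, a call that 6 rows (0.0651%) reached in the lower direction. The smallest of the 7, in the authors' deposited table, were 0.117 for pacsin2 and 0.35 for arhgap11a, from the authors' own DESeq2 fit. In a Wald test against no change, the deposited log2 fold change over its standard error with Benjamini-Hochberg adjustment over all rows at 0.05, 111 rows (1.21%) were lower and 81 (0.879%) higher. All 7 genes were among the lower ones, which their selection fixes. With a t distribution of 4 degrees of freedom in place of the normal, 0 of the 7 were called, so that these calls rest on the normal reference. Under that setting only 1 of the 9211 rows was lower and 0 were higher, so it hardly sets the 7 apart from other changed rows.

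**Figure D2:**
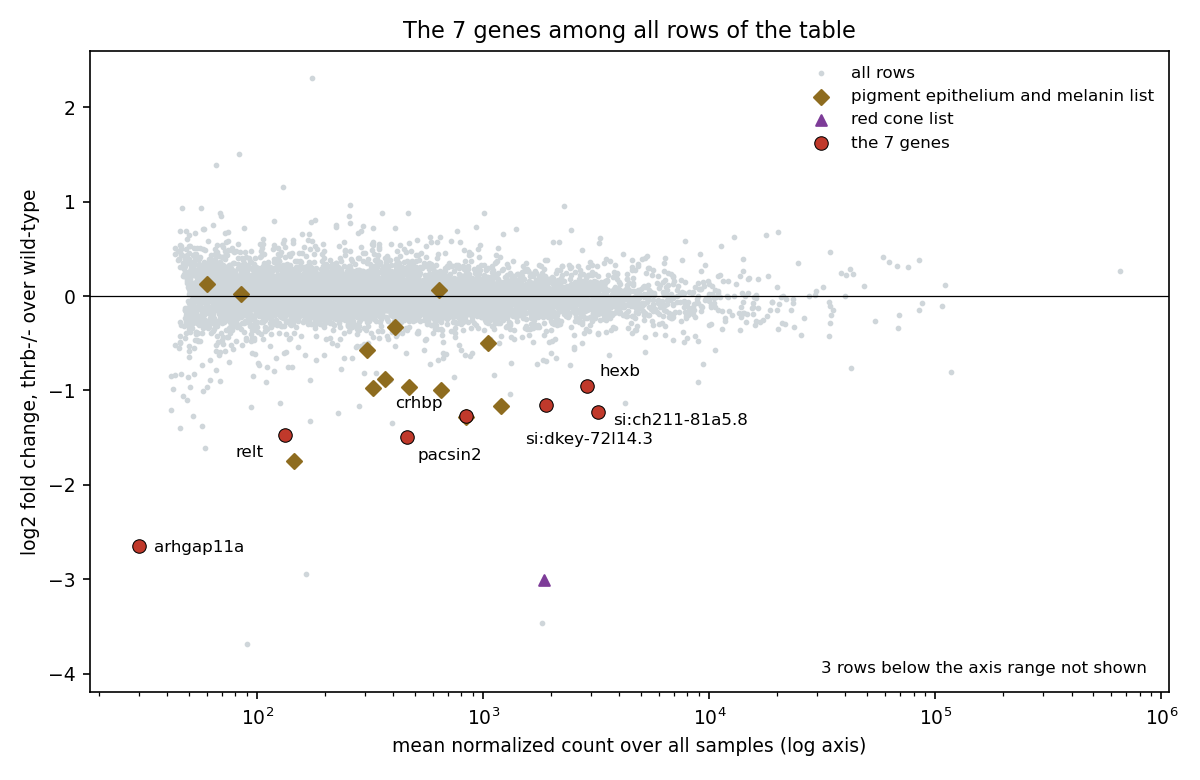
Log2 fold change (thrb-/- over wild-type) against the mean normalized count (log axis) for all rows, with the 7 genes in red, the pigment epithelium and melanin list as brown diamonds and the red cone list as purple triangles. The 7 genes lie between -2.64 and -0.95 over the range of mean counts from 30.1 to 3220, and crhbp covers the diamond of stra6. The 3 rows below the axis range are not drawn, among them opn1lw1 (-8.19) and opn1lw2 (-9.42). Of the red cone list only thrb is therefore shown.

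The 32 other rows that lay at or below hexb held 3 red cone transcripts, 6 of the pigment epithelium and melanin list, 1 of the pan-cone list (grk7a) and 22 on none of the lists used. Of the 32, 25 passed the Wald test (1.21% of all rows did in this direction) and 7, with wide standard errors, did not. The choice of these rows by fold change largely sets that count. The row nearest to each gene by log2 fold change was sought over the single mutant to wild-type contrast. It was mhc1uba, a major histocompatibility gene, for arhgap11a (-2.94, SE 0.23 in the authors' deposited table). For pacsin2 and also for relt it was myom1a, a gene of the muscle sarcomere, whose SE of 1.53 in the authors' deposited table leaves its value of -1.40 undetermined. For crhbp it was shhb, a hedgehog ligand (-1.27, SE 0.30), and for si:ch211-81a5.8 frem1a, of the extracellular matrix (-1.24, SE 0.23), in the authors' deposited table. The nearest to si:dkey-72l14.3 was si:ch211-133l5.7 (-1.16, SE 0.22), and the nearest to hexb was pmela, a melanosome protein gene (-0.96, SE 0.15), in the authors' deposited table. Among genes of the lists used, the next above hexb was gngt2a, a cone transducin subunit, at -0.91 (SE 0.14) in the authors' deposited table.

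No relative or partner examined passed the test, but of 259 symbols looked for only 112 were rows of the table. The rest cannot be judged here. Of 112 genes of 8 lists of paralogs and partners that were rows of the table and are reported here, 0 were lower and 0 higher by the Wald test, beside 1.21% and 0.879% of all rows, and 5 had an unadjusted p under 0.05. The authors' own test called 0 as well. Their log2 fold changes ran from -0.43 to 0.61 with a median of 0.0028. No 95% interval among the 112 reached the fall of hexb, the lowest bound being -0.89 for traf6.

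Of the PACSIN family, pacsin1a had 3753 normalized counts in mutant retina against 3686 in wild-type retina in the authors' deposited table (a log2 fold change of 0.026, 95% interval -0.16 to 0.21). Its paralog pacsin1b was at 215 in mutant retina and 212 in wild-type retina in the authors' deposited table (0.018, interval -0.29 to 0.33). The third paralog, pacsin3, stood at 521 in mutant retina against 680 in wild-type retina in the authors' deposited table (-0.39, SE 0.12), and its Wald adjusted p was 0.061, though it passed when only rows with a mean count of at least 200 were tested. None of 34 genes for dynamins, N-WASP, EHD proteins and the endocytic coat passed the Wald test in either direction (0 with an unadjusted p under 0.05), with a median of 0.011 and a range from -0.14 for ap2m1b to 0.25 for dnm2b. The most highly counted of them was cltcb, a clathrin heavy chain gene, with 7688 normalized counts in mutant retina and 8280 in wild-type retina in the authors' deposited table (-0.11, SE 0.088).

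Transcripts for peptides of the family that the crhbp product binds were read beside it, and not the peptides themselves. The corticotropin-releasing hormone gene crhb had 476 normalized counts in mutant retina and 472 in wild-type retina in the authors' deposited table (a log2 fold change of 0.014, 95% interval -0.24 to 0.27). The urotensin gene uts1, for another peptide of this family, was at 278 in mutant retina against 248 in wild-type retina in the authors' deposited table (0.17, interval -0.14 to 0.48). Of 7 listed genes of this system none passed the Wald test, and nr3c2, the mineralocorticoid receptor gene (0.33, SE 0.11 in the authors' deposited table; Wald adjusted p = 0.093), and hsd11b2, an enzyme that inactivates cortisol (0.32, SE 0.14; Wald adjusted p = 0.36), had an unadjusted p under 0.05. The most highly counted gene of this list, tsc22d3, which glucocorticoids induce in mammals, was at -0.024 (SE 0.092) in the authors' deposited table. That was the lowest value of the 7, which had a median of 0.17. The highest was fkbp5, at 0.61 with a wide SE of 0.61 in the authors' deposited table. The hormone's receptor genes were not analysed here.

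No other lysosomal gene of the lists passed the test. Its partner subunit in mammalian hexosaminidase A, encoded by hexa, stood at 162 normalized counts in mutant retina against 154 in wild-type retina in the authors' deposited table (a log2 fold change of 0.074, 95% interval -0.28 to 0.43). RefSeq lists hexa also as an older synonym of hexb, but the table carries both names as separate rows. The hexosaminidase D gene hexdc was at 119 in mutant retina and 125 in wild-type retina in the authors' deposited table (-0.077, interval -0.48 to 0.33). None of 25 genes for lysosomal glycosidases and sphingolipid hydrolases passed the Wald test, with a median of 0.0066, and 1, the cholesterol transporter npc1 (-0.23, SE 0.10 in the authors' deposited table), had an unadjusted p under 0.05. The most highly counted was psap, the precursor of activators of sphingolipid breakdown, at -0.12 (SE 0.11) in the authors' deposited table. None of 18 genes for lysosomal membrane proteins and cathepsins passed it either (0 with an unadjusted p under 0.05, median -0.066), and the most highly counted, scarb2, stood at 0.093 (SE 0.15) in the authors' deposited table.

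For relt, the related rell1 had 120 normalized counts in mutant retina against 125 in wild-type retina in the authors' deposited table (a log2 fold change of -0.047, 95% interval -0.43 to 0.33). The kinase genes oxsr1a and oxsr1b, whose mammalian counterpart binds RELT, had log2 fold changes of -0.028 (SE 0.15 for oxsr1a) and 0.15 (SE 0.14 for oxsr1b) in the authors' deposited table. None of 12 genes of the tumour necrosis factor receptor family and its adaptors passed the Wald test (0 with an unadjusted p under 0.05, median -0.038), and the most highly counted, the adaptor gene traf4a, was at -0.098 (SE 0.11) in the authors' deposited table.

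Among 44 ARHGAP symbols looked for as relatives of arhgap11a, 7 were rows of the table. These 7 lay between -0.15 for arhgap12b and 0.077 for arhgap1 in the authors' deposited table. None of them passed the Wald test (0 with an unadjusted p under 0.05, median -0.077), and the most highly counted, arhgap12a, was at -0.064 (SE 0.095) in the authors' deposited table. Among 32 cell cycle symbols looked for, 6 were rows of the table, and none of these passed. Of them, ccne2, a cyclin of the start of DNA synthesis, had 639 normalized counts in mutant retina against 863 in wild-type retina in the authors' deposited table (-0.43, SE 0.18, Wald adjusted p = 0.35). It was the lowest of the 6, which had a median of 0.038 and reached 0.28 for mki67.

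**Figure D3:**
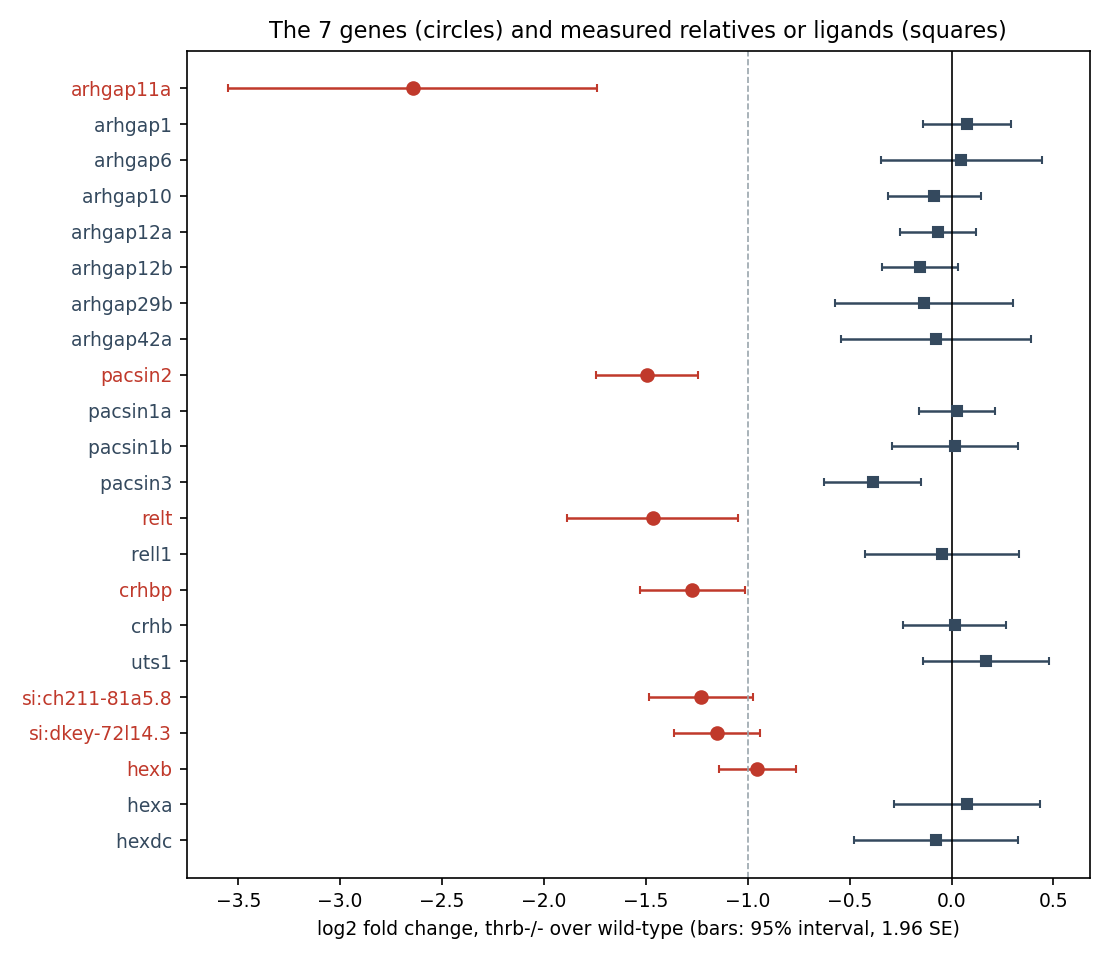
Log2 fold changes (thrb-/- over wild-type) with 95% intervals. Red circles are the 7 genes, chosen for their fall, and dark squares their measured paralogs, relatives or genes of bound hormones. The dashed line marks a 2-fold fall. The squares gather around 0, with pacsin3 at -0.39 the farthest from it, and no square's interval reaches the dashed line.

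The genes next to the 7 on the chromosome were also compared, since neighbours were no part of the choice. By RefSeq gene order (assembly GRCz12tu, used for order and names only, as the submitters' notes name danRer10), the 7 genes lie on 7 different chromosomes, and si:ch211-81a5.8 shares that of thrb with 209 genes between them. Of the 14 nearest listed genes, 1 on each side of each gene, 0 passed the Wald test, beside 1.21% lower and 0.879% higher among all rows, and 2 had an unadjusted p under 0.05. The authors' own test also called 0 of the 14. Their log2 fold changes ran from -0.28 to 0.22.

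Directly beside pacsin2, arfgap3 was at -0.02 (SE 0.25) and ttll1 at 0.05 (SE 0.14) in the authors' deposited table. Directly before crhbp, aggf1 stood at -0.004 (SE 0.13), and directly before hexb gfm2 at -0.15 (SE 0.19), in the authors' deposited table. The gene directly before si:dkey-72l14.3, si:dkey-72l14.4, was at -0.039 (SE 0.11) in the authors' deposited table. Both neighbours with an unadjusted p under 0.05 flank si:ch211-81a5.8. They are clk2a, a kinase gene (-0.20, SE 0.089 in the authors' deposited table; Wald adjusted p = 0.44), and ndufv1, a subunit of respiratory complex I (-0.28, SE 0.087; Wald adjusted p = 0.05002, just above the threshold and past it once fold changes were centred on the median of all rows). On the other side of crhbp the nearest listed gene, psmb7, was 19 genes away (-0.16, SE 0.11 in the authors' deposited table). The other-side neighbour of hexb was ankra2, 5 genes away (-0.061, SE 0.13), and that of si:dkey-72l14.3 was xpc, 3 away (0.16, SE 0.20). For relt and arhgap11a no directly adjacent gene was listed on either side. The nearest were 4 and 11 genes away for relt (fam168a and rps3) and 6 and 17 for arhgap11a (chrm5a and gchfr). Within 12 genes on each side, 37 neighbours were listed, and 0 were lower and 0 higher by the Wald test, with 3 at an unadjusted p under 0.05. Their median was -0.0077, and the lowest bound of their 95% intervals was -0.75.

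RefSeq places a non-coding gene over part of relt, arhgap11a and si:dkey-72l14.3. The library protocol names no step that marks strand, so that reads from such overlapping genes cannot be told apart.

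**Figure D4:**
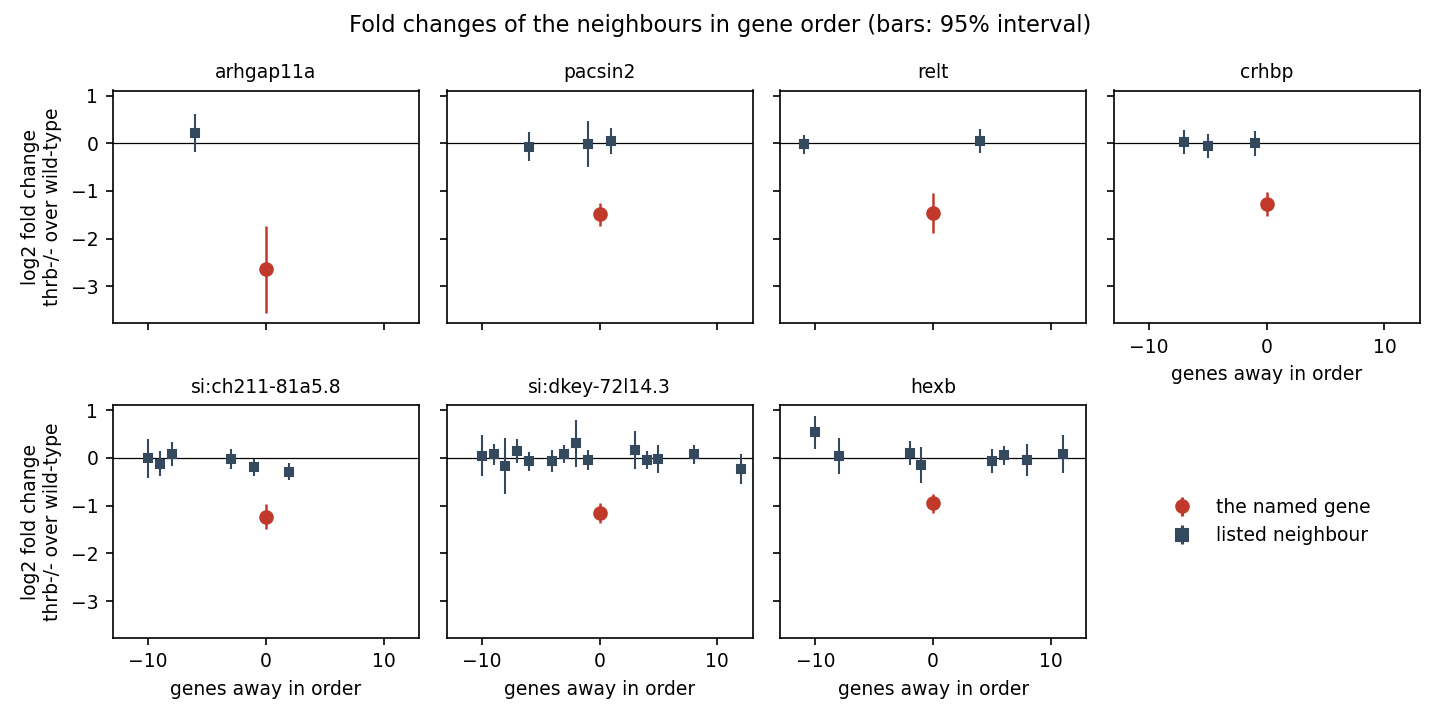
Log2 fold change (thrb-/- over wild-type, 95% intervals) of each of the 7 genes (red, at 0) and of the listed genes within 12 places on each side in RefSeq gene order (dark), 1 panel for each gene. In every panel the red point lies below the dark ones, which stay between -0.28 and 0.54.

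Markers of retinal cell types and of adjoining tissue were read beside the 7 genes. Many genes of the pigment epithelium and melanin list were lower too. Of 13 listed genes 8 fell (1.21% of all rows did), 0 rose and 5 did not pass the Wald test, with a median of -0.88. Of the 5, gpr143 (0.025), mitfb (0.13) and trpm1b (0.065) lay above 0, and pmelb (-0.57) and rgra (-0.33) below. With a t distribution of 4 degrees of freedom 0 of the 13 were called, a setting under which only 1 row of the whole table was lower. The 13 summed to 4800 normalized counts in mutant retina and 8287 in wild-type retina, 57.9% of the wild-type sum, and none of the 13 was listed at 0. Of the 13, 6 were at least as low as hexb. One of them, stra6, the retinol-binding protein receptor gene, lay beside crhbp in both level and fall, at 488 in mutant retina against 1191 in wild-type retina in the authors' deposited table (a log2 fold change of -1.28, SE 0.14). The part of the pigment epithelium in the fall of any of the 7 genes was not tested.

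Among genes of the pan-cone list 4 of 19 fell and 1 rose by the Wald test (median -0.21, 7 with an unadjusted p under 0.05). Those that fell were grk7a (a log2 fold change of -1.14, SE 0.096), gngt2a (-0.91), pde6h (-0.81) and rgs9a (-0.48) in the authors' deposited table. The 1 that rose was grk7b (0.63), so paralogs on this list did not all move together. The 19 summed to 407684 normalized counts in mutant retina and 538815 in wild-type retina, 75.7% of the wild-type sum. Of 6 other cone opsins 0 fell and 2 rose (median 0.34, 3 with an unadjusted p under 0.05). Of the 15 rod genes reported here 0 fell and 2 rose (median 0.19). An unadjusted p under 0.05 was seen for 8 of the 15, with prph2a lower and the others higher. The microglia and leukocyte list is of interest for hexb, which marks microglia in mammals. Of its 9 listed genes 0 passed the Wald test in either direction (0 with an unadjusted p under 0.05, median 0.17). They summed to 13971 normalized counts in mutant retina and 14450 in wild-type retina, 96.7% of the wild-type sum. The sum says little about the other genes of the list, as most of it was apoeb. That gene was at 10213 in mutant retina against 11062 in wild-type retina in the authors' deposited table. Its log2 fold change of -0.12 (SE 0.084) was the lowest of the list, and the others lay above 0. None of 11 Müller glia genes (2 with an unadjusted p under 0.05), 13 bipolar genes (2) and 7 vascular genes (0) passed. Of 25 amacrine and ganglion cell genes (5) 1 fell and 2 rose, and of 7 horizontal cell genes (2) 1 fell. The authors' own test called 0 genes of these lists apart from the red cone list. The table gives no level by cell type, and whether the 7 transcripts come from red cones was not tested.

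**Figure D5:**
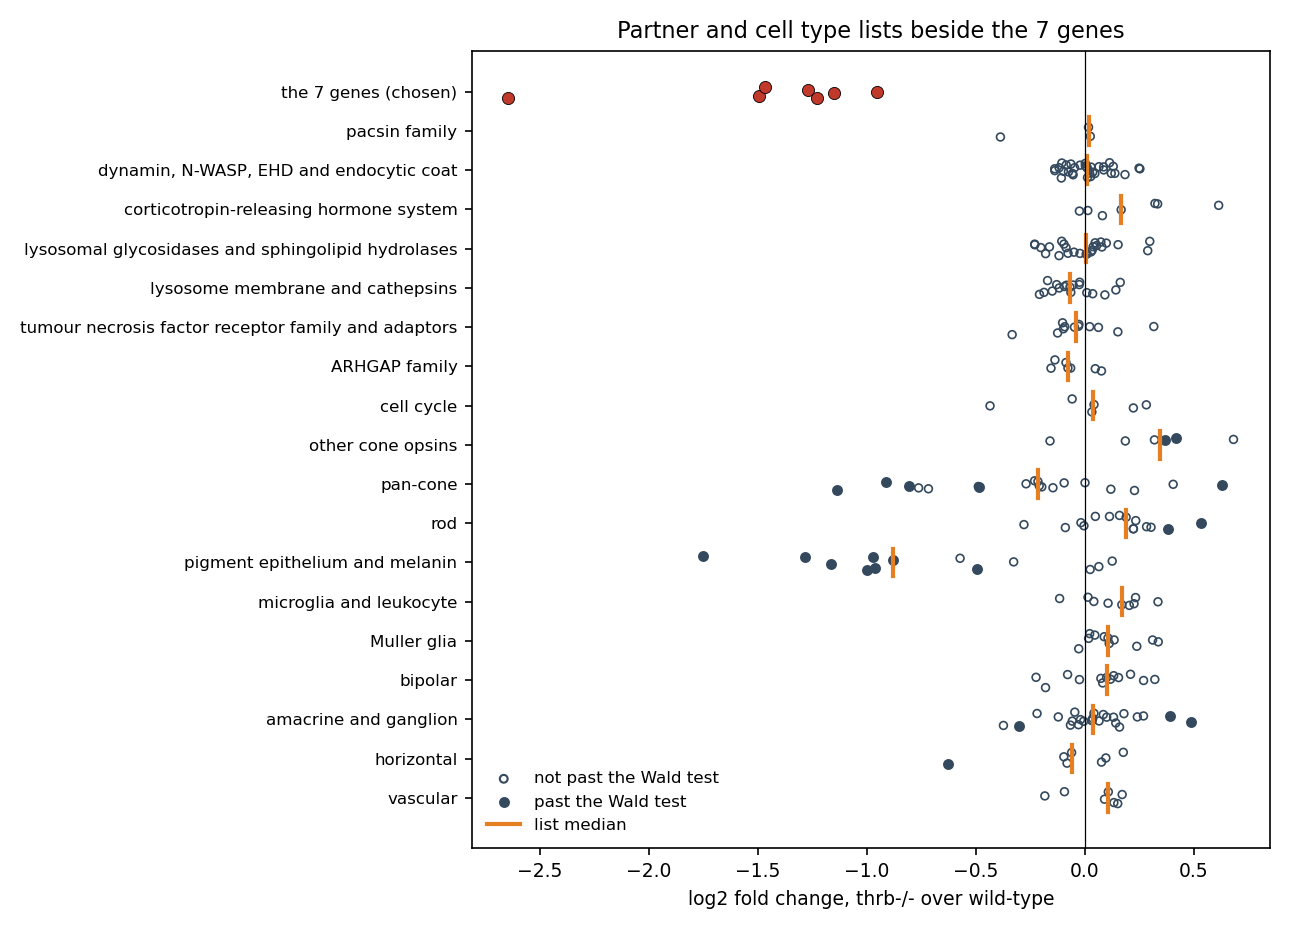
Log2 fold changes (thrb-/- over wild-type) of the 7 genes (red, chosen for their fall) above 18 lists of partners and cell type markers, with filled points past the Wald test at an adjusted p of 0.05, open points not past it and an orange bar at each list's median. The pigment epithelium and melanin list, median -0.88, overlaps the range of the 7 genes, as does grk7a of the pan-cone list at -1.14, while the 8 partner lists hold no filled point.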

How the data were processed

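The only data used were a table of 9211 gene rows deposited by the authors. The group means are a signal, the normalized count (count over size factor) averaged by the authors over the 3 samples of each genotype, per the file headers. The log2 fold change (thrb-/- over wild-type) and its standard error are as deposited by the authors, and lie within 0.030 of the log2 ratio of the group means. Both the score (test statistic) and the p-value that the authors deposited ask whether a change exceeds 2-fold, as the values show. The submitters' processing notes name DESeq2 1.18.1, R 3.4.3, HTSeq 0.9.1, STAR 2.7.2b, cutadapt 1.9.1 and danRer10. For annotation and filters the sources used here give nothing. The deposited adjusted p-values imply that 13700 genes were adjusted together, more than the 9211 rows. They place pacsin2 at rank 13 by p, while it holds rank 8 among the rows. Counts and shares given here cover the 9211 rows only. Read depth is unknown, since there are no counts per sample; precision comes from the deposited standard errors (median 0.14). Nothing says that samples came from separate fish beyond the pooling, and p-values measure only the spread the authors' fit saw.

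A Wald test (normal, two-sided, Benjamini-Hochberg over 9211 rows, threshold 0.05; Python 3.11.15, scipy 1.17.1) replaced a count test. Its calculation was tested on simulated data with normal errors, which does not test the normal reference itself. Intervals are 1.96 standard errors each way. The members, the 19 gene lists and the test were chosen with earlier results of these data known. List symbols absent from the table were looked up through RefSeq synonyms, and 9130 rows matched RefSeq. Named were the 7 genes, the red opsins and thrb, in each partner list the genes past the test or else the most abundant, paralogs with the same root symbol, the nearest listed gene on each side, and the row nearest by fold change. Other genes were named after their values were seen. They are traf6, ap2m1b, dnm2b, arhgap12b, arhgap1, the list members with an unadjusted p under 0.05, uts1, oxsr1a, oxsr1b, gngt2a, stra6 and apoeb. So are fkbp5, mki67, gpr143, mitfb and trpm1b. Some genes without an ARHGAP symbol on the list of arhgap11a relatives, and of the rod list, are not reported here; they were taken out after the values were seen, without regard to them, and counts cover the rest. In 10 rows the name had become a date. No sequences were used here.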

Additional observations from a re-analysis of the deposited data

How the results depend on the processing

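The Wald counts depend on the reference distribution and on what is asked. With a t distribution of 4 degrees of freedom 1 row was lower and 0 higher, and by the deposited adjusted p 6 were lower and 1 higher. The 8 pigment epithelium genes that fell became 0 under either setting. With rows limited to a mean count of at least 200, 1 partner gene was lower, pacsin3. Among the nearest neighbours 1, ndufv1, was lower with a mean count of at least 100, with one of at least 200 and with fold changes centred on the median of all rows. The fold change of arhgap11a was -1.76 from the group means with a pseudocount of 10. In the other 58 values recomputed, the fold changes of the 7 genes kept their direction within 1 SE and the counts stayed within 1.5 times. At a mean count of at least 100, 6 of the 7 genes were in the fit, and 5 at 200. The promoter motif counts were not run. No paired analysis was possible because the table has no values per sample, and no replicate could be left out for the same reason. Read depth is unknown, so what it limits cannot be given.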
